A study of Mus musculus with 12 samples.

Results

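T cell receptor alpha (TRA) rearrangements that cannot encode a receptor chain, because the join of V and J segment left the CDR3 out of frame, were examined in CD8+ T cells sorted with an Rpl18 tetramer. Each row of the TRA table gives the CDR3 of 1 rearrangement in 1 library, with the V and J segments called for it. Members were the rows translated as out of frame with a J segment other than TRAJ7, and the TRAJ7 rows whose deposited CDR3 length does not leave a remainder of 2 on division by 3. They numbered 2158 of 10521 rows, with 106136 of 731688 TRA reads (14.5%). The rest were 7935 productive rows with 623850 reads, and 428 rows with 1702 reads that were in frame but held a stop codon or an unread base. Rows of a library with the same CDR3 bases, TRAV subgroup and TRAJ segment were joined into a clonotype. The members made 1852 clonotypes (1718 different ones) and the productive rows 6918 clonotypes (6310 different ones).

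Mice were injected with MC38, a transplantable mouse colon carcinoma line, and on day 10 the T cells were taken from the tumor or from its draining lymph node (TDLN). The WT mice carried no named alteration, and the KO mice lacked TrIP, a transmembrane inhibitor of phosphoinositide kinase signalling, in CD8+ cells only. The driver of the deletion, the age of the mice and any pooling are not given in the sources used here. The 4 groups of 3 libraries were WT TDLN (numbers 1, 3 and 4), WT tumor (2, 3 and 4), KO TDLN (1, 2 and 3) and KO tumor (1, 2 and 3), and all groups shared the tumor line, the day and the tetramer sort. The files hold receptor sequences only, so neither the deletion nor the CD8+ identity of the cells could be checked by expression.

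An alpha chain gene is assembled in the thymus by joining 1 of many TRAV segments to 1 of many TRAJ segments, with bases trimmed and added at the join. Most joins fall out of frame. Both alleles of the locus rearrange, often repeatedly, so a mature cell with a working alpha chain commonly carries a failed join on its other chromosome. The beta locus follows allelic exclusion more strictly. Transcripts with an early stop are degraded by nonsense-mediated decay, so RNA libraries hold such joins at a lower level than DNA would. A failed join cannot be selected through its own product and acts as a passenger tag of the clone that carries it.

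Some of the 10 largest out-of-frame sequences by mean share of TRA reads are printed here 5′ to 3′ as deposited. A productive CDR3 of the same TRAJ segment is given beside them, to show the intact J end behind a shifted frame. Capitals mark, in a member, the 3′ stretch that productive clonotypes of at least 2 other TRAV subgroups also had. In a productive sequence they mark the stretch shared with the member above it. The TRA locus lies on mouse chromosome 14.
TRAV12-3 TRAJ21, out of frame, 38 bases: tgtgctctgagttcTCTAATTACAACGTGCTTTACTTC
TRAV1 TRAJ21, out of frame, 38 bases: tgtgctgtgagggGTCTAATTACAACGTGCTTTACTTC
TRAV3-3 TRAJ21, productive, 36 bases: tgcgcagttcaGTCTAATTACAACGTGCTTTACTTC
TRAV7-5 TRAJ22, out of frame, 41 bases: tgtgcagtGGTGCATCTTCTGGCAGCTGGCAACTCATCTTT
TRAV6-6 TRAJ22, productive, 39 bases: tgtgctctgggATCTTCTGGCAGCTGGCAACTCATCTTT
TRAV13-2 TRAJ34, out of frame, 34 bases: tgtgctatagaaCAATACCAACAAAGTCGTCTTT
TRAV14-1 TRAJ34, productive, 39 bases: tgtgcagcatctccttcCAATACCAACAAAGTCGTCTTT
TRAV7-2 TRAJ32, out of frame, 44 bases: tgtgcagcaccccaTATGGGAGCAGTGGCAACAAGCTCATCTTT
TRAV16 TRAJ32, productive, 51 bases: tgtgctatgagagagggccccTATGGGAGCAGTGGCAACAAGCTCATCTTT
TRAV3-3 TRAJ40, out of frame, 40 bases: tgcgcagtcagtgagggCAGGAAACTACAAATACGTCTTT
TRAV7-6 TRAJ40, productive, 33 bases: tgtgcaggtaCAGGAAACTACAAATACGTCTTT
Each of these members began with a cysteine codon and ended with a phenylalanine codon, the usual borders of a CDR3, and the number of bases between them broke the frame. Of the member rows 87.7% had both border codons, and these rows held 99.7% of the member reads. For productive rows the shares were 85.8% of rows and 97.5% of reads.

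TRAJ7 needed its own rule, because the deposited CDR3 of this segment stops 1 base before the end of its last codon. The largest productive clonotype of WT TDLN 4 and the largest failed join of that library, both with TRAJ7, are shown to make this visible, with the shared 3′ stretch in capitals as above.
TRAV12-2 TRAJ7, out of frame, 48 bases as deposited and 49 with the restored base: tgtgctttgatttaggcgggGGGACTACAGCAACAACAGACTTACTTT
TRAV6-7 TRAJ7, productive, 44 bases as deposited: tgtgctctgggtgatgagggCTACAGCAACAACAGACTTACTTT
Of 561 TRAJ7 rows, 495 were in frame once the base was restored. The other 66 were members, with 2580 reads, and 56 of them had been deposited as in frame. The one of those with the most reads was TRAV3-3 TRAJ7 in KO tumor 2, with 1140 reads and 33 bases as deposited. With the TRAJ7 frame as deposited, the direction of most comparisons between groups turned, as given in the closing section.

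Several libraries shared clonotypes, and this bears on every comparison. The libraries carry letters, each borne by 1 TDLN and 1 tumor library, and whether a letter marks a mouse was not established. Of the 1718 different out-of-frame clonotypes, 107 (6.23%) occurred under 2 or more letters, and they held 71.6% of the out-of-frame reads. Of the productive ones it was 490 of 6310 (7.77%), with 79.6% of the productive reads. The 6 pairs of libraries with the same letter shared only 5 out-of-frame clonotypes in all. The overlap of a pair was measured with the Morisita-Horn index, which runs from 0 for nothing shared to 1 for equal composition. Out of 66 pairs the index of out-of-frame clonotypes exceeded 0.1 in 3, all with different letters, and in those the productive index also did. WT TDLN 3 and KO tumor 3 had 0.665 out of frame and 0.399 productive. WT tumor 3 and KO TDLN 3 had 0.629 and 0.406, and KO tumor 2 and KO tumor 3 had 0.504 and 0.707. The highest out-of-frame index of a pair with the same letter was 0.00361. The source of the sharing was not tested, and libraries are not fully independent in the tests that follow.

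**Figure D1:**
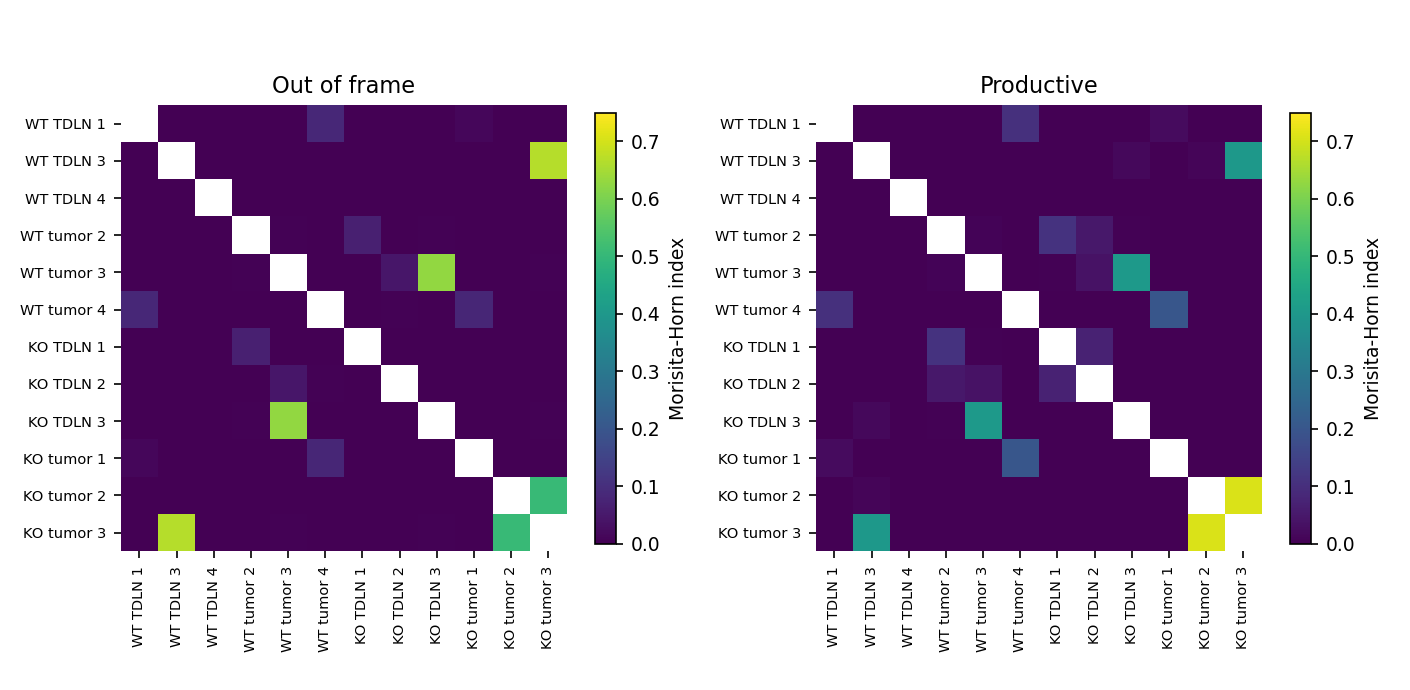
Overlap between each pair of the 12 libraries, as the Morisita-Horn index (colour), for out-of-frame clonotypes on the left and productive clonotypes on the right. The 3 bright pairs on the left, with 0.665, 0.629 and 0.504, are the 3 brightest on the right as well.

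Within the sharing pairs the failed joins did not keep 1 fixed ratio. Between WT TDLN 3 and KO tumor 3, 7 out-of-frame clonotypes had 10 reads or more in both, and the reads in WT TDLN 3 over those in KO tumor 3 ranged from 0.0498 to 2.19 (median 0.730). The 25 productive clonotypes ranged from 0.229 to 7.33 (median 1.16). Between WT tumor 3 and KO TDLN 3 the 5 out-of-frame ratios ranged from 1.31 to 22.3, and the 9 productive ones from 0.111 to 13.6.

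Out-of-frame joins took a substantial share of the alpha chain reads in every library. In WT TDLN they held 11.6%, 13.2% and 7.28% of the TRA reads of libraries 1, 3 and 4. In WT tumor they held 13.1%, 28.0% and 4.75% of libraries 2, 3 and 4. The WT tumor group thus contained both the highest and the lowest of the 12 values. In KO TDLN the shares were 18.7%, 14.7% and 18.9%, all above those of WT TDLN. In KO tumor they were 14.1%, 13.6% and 11.97%, all below those of KO TDLN. TRA reads per library ranged from 17082 to 109366 (WT TDLN 4 and WT tumor 2). The 95% Wilson intervals were narrow against the spread between libraries, for example 27.7% to 28.3% for WT tumor 3. They cover counting error only, since reads without molecular identifiers are not separate molecules.

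As group means the lymph node libraries had 10.7% ± 3.07 of reads out of frame in WT and 17.5% ± 2.36 in KO mice (SD, n = 3). The tumor libraries had 15.3% ± 11.8 and 13.2% ± 1.12 (SD, n = 3). In TDLN the KO mean exceeded the WT mean by 6.76 percentage points, and the groups did not overlap (exact two-sided permutation p = 0.1, the smallest that 3 against 3 allows, adjusted p = 0.356). All adjusted values are over 15 single-value tests by the Benjamini-Hochberg method. Tumor minus TDLN in KO was -4.24 points, again without overlap (exact p = 0.1, adjusted p = 0.356). With clonotypes found under 2 or more letters left out it was 2.16 points. In tumor the difference of KO from WT was -2.07 points (exact p = 0.9), and 4.29 without WT tumor 3. Within WT the difference of tumor from TDLN was 4.597 points (exact p = 0.8), and -1.76 without WT tumor 3. With the genotypes joined, tumor differed from TDLN by 0.18 points (exact permutation within genotype, p = 0.97). None of these differences passed the correction.

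Counting each clonotype once gave a narrower range in 3 of the 4 groups. Of the clonotypes in TDLN, 18.96% ± 1.73 were out of frame in WT and 21.3% ± 2.00 in KO mice (SD, n = 3). Of those in tumor it was 24.2% ± 12.5 and 21.4% ± 1.06 (SD, n = 3). In WT tumor the values were 28.8%, 33.8% and 10.1% for libraries 2, 3 and 4. The difference of KO from WT was 2.31 points in TDLN (exact p = 0.2) and -2.80 points in tumor (exact p = 0.8). The difference of tumor from TDLN was 5.26 points for WT (exact p = 0.5), 0.15 points for KO (exact p = 1) and 2.71 points with the genotypes joined (exact p = 0.44). None of these 5 differences passed the correction (adjusted p-values of 0.5 or more), and in TDLN the exact p of 0.2 lies near the smallest that 3 against 3 allows.

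**Figure D2:**
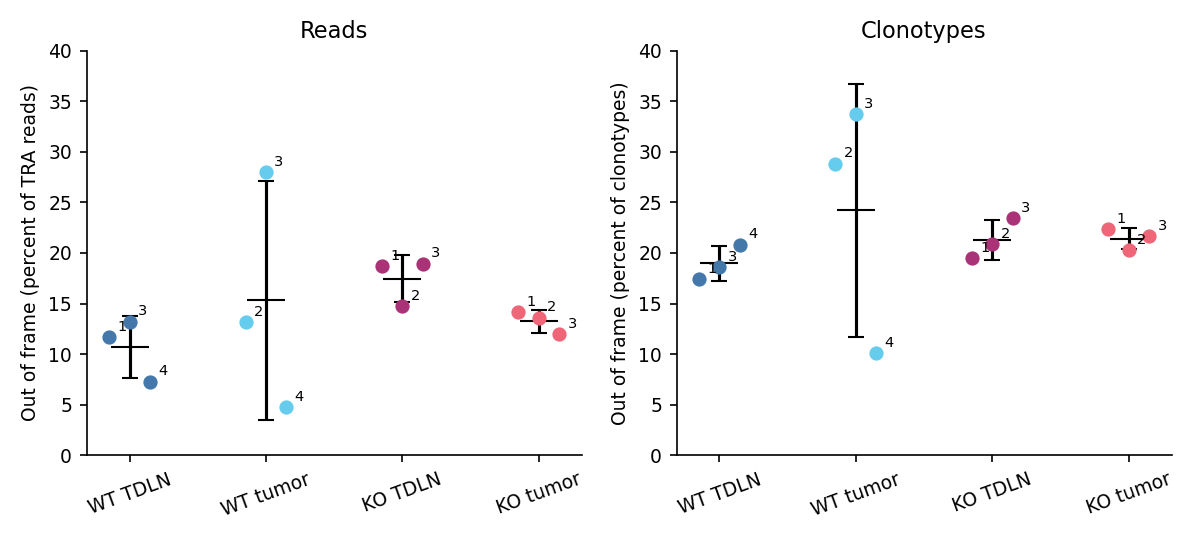
Out-of-frame share of TRA reads (left) and of TRA clonotypes (right), in percent, for each library (points, with the library number) and as group mean ± SD (horizontal line and bars, n = 3). WT tumor spans 4.75% to 28.0% of reads and 10.1% to 33.8% of clonotypes, wider than the other 3 groups.

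The beta chain (TRB) offered a comparison within the same RNA. In the 8 libraries with a deposited table of all chains, out-of-frame rows held 1.02% to 8.02% of the TRB reads (mean 2.99% ± 2.33, SD, n = 8). The TRA share of the same libraries was 13.98% ± 7.14 and was higher in 8 of 8, by 10.99 points (exact two-sided sign-flip p = 0.00781). This test was added after the values were seen and stands outside the 15. TRB rows were taken as out of frame as deposited, without a frame rule like that for TRAJ7. By rows the shares lay closer: 8.65% to 15.4% of the TRB rows of these libraries, beside 20.5% of the TRA rows of all 12 libraries. WT tumor 3 had the lowest TRB share, 1.02%, beside the highest TRA share, 28.0%. KO tumor 1 had the highest TRB share, 8.02%, beside a TRA share of 14.1%.

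A few large clonotypes made up most of the out-of-frame reads. Counted over libraries, 32 out-of-frame clonotypes reached 1% of the TRA reads, and they held 76.3% of all out-of-frame reads. Of productive clonotypes 140 reached 1%, with 86.0% of the productive reads. At least 1 such large failed join was present in each library, and WT tumor 3 had the most, 5. At 10% or more there were 2 out-of-frame clonotypes, against 20 productive ones.

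The largest failed join of each library ranked 2 to 14 among all its TRA clonotypes. In KO TDLN 1 it was TRAV7-5 TRAJ22, with 6443 reads or 12.6% of TRA reads, 0.608 of the largest productive clonotype (TRAV3-3 TRAJ17, 20.8%). In WT tumor 2 it was TRAV12-3 TRAJ21, with 13669 reads or 12.5%, 0.168 of the largest productive clonotype (TRAV14-2 TRAJ22, 74.4%). This single join held 95.1% of the out-of-frame reads of that library. In KO TDLN 2 TRAV6-3 TRAJ6 held 9.42%, and in WT tumor 3 TRAV13-2 TRAJ34 held 8.44%. Both ranked 3 in their libraries. In KO tumor 1 TRAV7-2 TRAJ32 held 6.29%, in WT TDLN 3 TRAV3-3 TRAJ40 held 5.29%, and in KO TDLN 3 TRAV13-1 TRAJ32 held 4.77%. In KO tumor 2 TRAV6-7 TRAJ52 held 4.76%, and in WT TDLN 1 TRAV6-3 TRAJ49 held 4.43%. WT TDLN 4 had TRAV12-2 TRAJ7 at 4.03%, which ranked 2 behind a productive clonotype of 71.9%. KO tumor 3 had TRAV3-3 TRAJ40 at 2.43%, and WT tumor 4 had TRAV6-7 TRAJ39 at 1.46%, the lowest of the 12 maxima. In each library the largest productive clonotype was larger than the largest failed join, with a ratio of out of frame to productive from 0.0560 (WT TDLN 4) to 0.608 (KO TDLN 1). Bulk reads do not tell which productive chain shared a cell with a failed join, and amount of RNA per cell and number of cells cannot be told apart here.

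**Figure D3:**
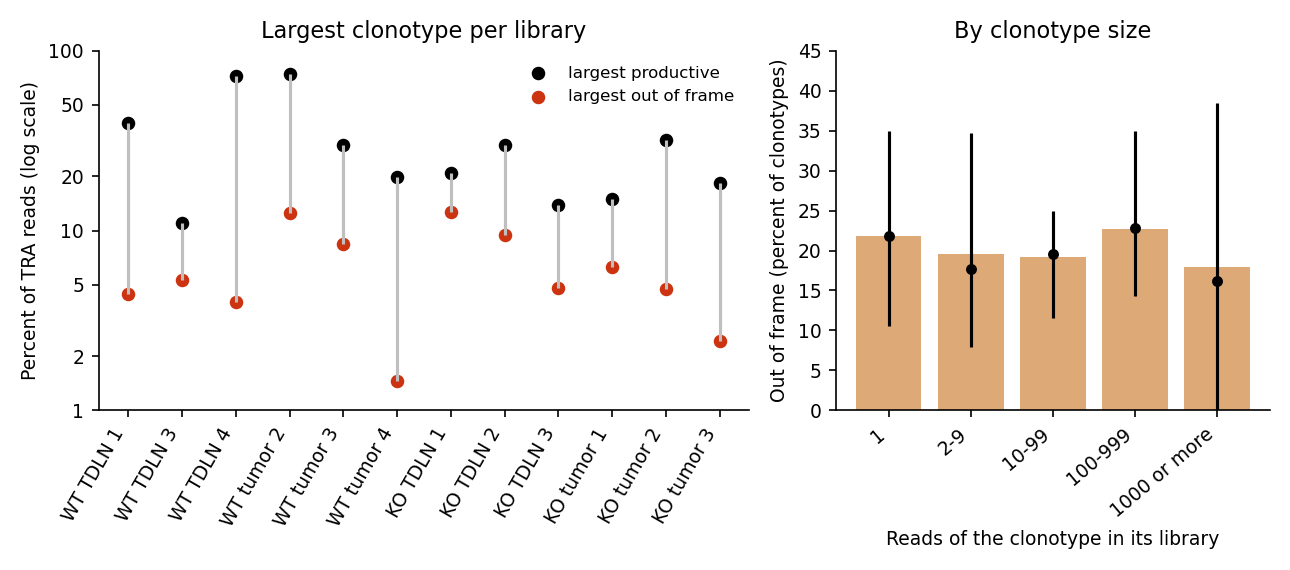
Left, the largest out-of-frame (red) and largest productive (black) clonotype of each library as a percent of TRA reads, on a log scale. Right, the percent of clonotypes that were out of frame by the number of reads of the clonotype (bars, 12 libraries together; points and lines, median and range over libraries); the bars lie between 17.9% and 22.6%.

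Failed joins occurred at a like share among clonotypes of every size. They made up 21.8% of the clonotypes with a single read, 19.6% of those with 2 to 9 reads, 19.2% with 10 to 99, 22.6% of those with 100 or more but under 1000, and 17.9% with 1000 or more. Libraries ranged from 0% to 38.5% in the top class, which held 123 clonotypes in all. The percent of clonotypes with a single read was 69.4% ± 5.40 out of frame and 66.2% ± 4.65 productive (SD, n = 12), a difference of 3.22 points (exact two-sided sign-flip over libraries, p = 0.0356, adjusted p = 0.267). It was -1.83 points when clonotypes that differed by 1 base from one with at least 100 times their reads were left out. Such variants were 41.5% of the out-of-frame and 51.5% of the productive clonotypes, with 1.26% and 1.59% of the reads. Each variant was of the same kind as its larger clonotype, so the shares in the small size classes partly repeat those of the large ones. The shares by size were not computed without variants. Out-of-frame clonotypes 1 inserted or deleted base from a productive one with at least 20 times the reads numbered 216 (11.7%). They held 376 reads, 0.354% of the out-of-frame reads, and none of the 101 out-of-frame clonotypes with 100 reads or more was among them. The rule asks for 20 times the reads, so it could not mark the largest joins whatever their sequence. In WT tumor 2, for example, the largest join had 13669 reads and the largest productive clonotype 81315. In the other direction, 24 productive clonotypes with 32 reads in all lay 1 inserted or deleted base from such a larger out-of-frame clonotype.

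The 10 largest out-of-frame clonotypes took 92.5% ± 4.91 of the out-of-frame reads, and the 10 largest productive ones 81.3% ± 11.2 of the productive reads (SD, n = 12). The share was higher out of frame in 11 of 12 libraries, by 11.2 points (exact sign-flip p = 0.000977, adjusted p = 0.0146). The libraries held 55 to 241 out-of-frame but 209 to 881 productive clonotypes. Taken over the largest 10 percent of the clonotypes of each kind instead, the difference was -1.77 points (exact p = 0.00537, adjusted p = 0.0806), so the direction rested on the fixed number of 10. Without clonotypes found under 2 or more letters it was 12.7 points (adjusted p = 0.517), and without the 4 libraries noted as timed out 9.92 points (adjusted p = 0.117).

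Many of the named failed joins were shared. TRAV12-3 TRAJ21 was found under 5 letters. WT tumor 2 had 13669 reads of it, KO TDLN 1 had 453 and WT tumor 3 had 64. KO TDLN 3 had 27, KO tumor 2 had 10, and there were none in the other 7 libraries. TRAV13-2 TRAJ34 had 6620 reads in WT tumor 3 and 815 in KO TDLN 3. TRAV1 TRAJ21 had 3780 and 2075 reads in the same libraries, and TRAV13-1 TRAJ32 3103 and 2362. TRAV3-3 TRAJ40 had 2961 reads in WT TDLN 3 and 1349 in KO tumor 3. TRAV6-7 TRAJ52 had 2256 reads in KO tumor 2 and 1330 in KO tumor 3. Others were more uneven. TRAV6-3 TRAJ6 had 6976 reads in KO TDLN 2, 476 in WT tumor 3 and 9 in WT tumor 4. For TRAV4-2 TRAJ31, WT tumor 3 had 4335 reads, KO TDLN 3 had 194 and KO tumor 3 had 6. TRAV6-7 TRAJ39 had 1059 reads in WT tumor 4, 330 in WT TDLN 1 and 1 in KO TDLN 2. TRAV7-2 TRAJ32 had 1731 reads in KO tumor 1 and 1 in KO TDLN 3. Of the named joins, 3 were found in a single library: TRAV7-5 TRAJ22 in KO TDLN 1, TRAV6-3 TRAJ49 in WT TDLN 1 and TRAV12-2 TRAJ7 in WT TDLN 4. Besides TRAV12-3 TRAJ21, 2 further clonotypes had 10 reads or more under 3 letters. TRAV13-3 TRAJ21 had 799 reads in WT tumor 4, 338 in KO tumor 1 and 94 in WT TDLN 1. A smaller TRAV13-1 TRAJ32 join of 44 bases had 144 reads in WT tumor 3, 45 in WT tumor 2 and 20 in WT TDLN 4. They are printed because their identity across libraries rests on each base, with the capitals as above.
TRAV13-3 TRAJ21, out of frame, 38 bases: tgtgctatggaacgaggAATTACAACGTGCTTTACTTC
TRAV13-1 TRAJ32, out of frame, 44 bases: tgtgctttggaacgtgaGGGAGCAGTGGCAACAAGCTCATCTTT
TRAV13-1 TRAJ32, out of frame, 47 bases: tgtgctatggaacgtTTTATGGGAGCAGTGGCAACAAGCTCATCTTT
TRAV6-7 TRAJ52, out of frame, 50 bases: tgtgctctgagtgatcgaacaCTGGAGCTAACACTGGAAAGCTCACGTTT

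For 23 out-of-frame clonotypes with at least 100 reads in all and 10 or more in at least 2 libraries, the productive clonotype with the most similar profile of shares over the 12 libraries was sought among 295 with at least 100 reads. The cosine similarity, which is 1 for proportional profiles, was 0.99 or more for 20 of them (median 0.9995). Of the 23, 20 had 10 or more reads in only 2 libraries, where the measure rests on a single ratio, and up to 38 productive clonotypes then reached 0.99 for the same join. Some high values rested on 1 dominant library. TRAV6-3 TRAJ6 had 476 reads in WT tumor 3, where its closest productive clonotype had 0. For TRAV12-3 TRAJ21 it was 64 reads in WT tumor 3 and 10 in KO tumor 2, each against 0. Where the closest clonotype had reads, the ratio of the join to it ranged from 0.0646 to 30.2. Near-equal ratios across libraries follow from choosing the most similar of 295 profiles, so they are not a separate result. How often productive clonotypes reached 0.99 with each other was not computed. TRAV1 TRAJ21 was closest to the productive TRAV7-6 TRAJ42 clonotype with 7753 reads in all. Its reads over those of that clonotype were 0.702 in WT tumor 3 and 0.876 in KO TDLN 3. TRAV12-2 TRAJ12 had 1.25 and 1.26 times the reads of a productive TRAV12-3 TRAJ45 clonotype in WT TDLN 3 and KO tumor 3. TRAV6-7 TRAJ39 had 0.426 and 0.439 times those of another TRAV7-6 TRAJ42 clonotype in WT TDLN 1 and WT tumor 4. TRAV3-3 TRAJ40, in contrast, had 8.07 and 8.03 times the reads of its closest clonotype, the productive TRAV7-6 TRAJ40 sequence printed above. The lowest similarities, 0.815 and 0.828, belonged to the joins with 10 reads or more under exactly 3 letters, TRAV13-3 TRAJ21 and the shorter TRAV13-1 TRAJ32. A like profile names no partner in the cell.

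The use of TRAV segments was compared between out-of-frame and productive clonotypes of the same library, with each clonotype counted once. Of 45 segments tested, 6 passed an adjusted p of 0.05 (13.3%), 2 of them higher (4.44%) and 4 lower (8.89%) out of frame (edgeR quasi-likelihood test with the library as a block). TRAV16 was the most used segment of both kinds. It took 21.04% ± 12.7 of the productive and 8.54% ± 8.50 of the out-of-frame clonotypes (SD, n = 12), a log2 fold change of -1.75 (edgeR adjusted p = 0.00389), and was lower in 11 of 12 libraries. The exception was KO tumor 3, with 13.2% out of frame and 11.1% productive. The call was kept in each fit that left out 1 library (highest adjusted p 0.0256) and lost with no library block (adjusted p = 0.127). Of all TRAV16 reads 1.91% were out of frame.

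The other lower segments were TRAV7-4 (log2 fold change -2.11, edgeR adjusted p = 0.0125), TRAV14-2 (-1.98, adjusted p = 0.0165) and TRAV7-6 (-1.92, adjusted p = 0.0437). They were lower out of frame in 12, 12 and 11 of 12 libraries. TRAV7-4 took 11.7% ± 16.2 of the productive and 2.85% ± 3.59 of the out-of-frame clonotypes. Its productive share was 52.4% in KO tumor 2 and 34.7% in KO tumor 3, the libraries whose largest productive clonotype used it. TRAV14-2 took 47.8% of the productive and 17.9% of the out-of-frame clonotypes in WT tumor 2, where the largest productive clonotype used it. TRAV7-6 took 35.5% and 1.24% in WT tumor 3. With clonotypes found under 2 or more letters left out, TRAV16 alone still passed (adjusted p = 0.00249). With sequence variants left out, TRAV16 (log2 fold change -1.19) and TRAV7-4 (-1.76) passed, each with an adjusted p of 0.00673, while TRAV14-2 (0.101) and TRAV7-6 (0.159) did not. With the TRAJ7 frame as deposited, TRAV7-4 had a log2 fold change of -0.29 (adjusted p = 0.747). In the 12 fits that left out 1 library each, TRAV7-4 passed in 12, TRAV14-2 in 11 (lost without WT tumor 2, adjusted p = 0.0503) and TRAV7-6 in 6. TRAV7-6 was lost without WT TDLN 3, WT tumor 2, WT tumor 3, KO TDLN 2, KO TDLN 3 or KO tumor 3 (highest adjusted p 0.161). With no library block none of these 3 passed (adjusted p = 0.0542 for TRAV7-4 and 0.127 for each of the others).

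The higher segments, TRAV6-3 and TRAV13-3, were almost absent from productive clonotypes. TRAV6-3 had 100 out-of-frame and 16 productive clonotypes, a log2 fold change of 3.68 (edgeR adjusted p = 0.0261), and 97.8% of its reads were out of frame. Its out-of-frame clonotypes came from 5 libraries, with 54 in KO TDLN 2 and 35 in WT TDLN 1, the libraries of the large joins TRAV6-3 TRAJ6 and TRAV6-3 TRAJ49. TRAV13-3 had 23 and 4 clonotypes, a log2 fold change of 3.54 (edgeR adjusted p = 0.0440). Neither was called by DESeq2 (adjusted p = 0.999 each), with TMM normalization (0.0612 and 0.0672) or by limma (0.174 and 0.169). TRAV6-3 passed in 9 of the 12 fits without 1 library and was lost without WT TDLN 1 (adjusted p = 0.121), WT tumor 3 (0.0919) or KO TDLN 2 (0.0679). TRAV13-3 passed in 4 of the 12, those without WT TDLN 3, WT TDLN 4, KO TDLN 2 or KO tumor 2 (highest adjusted p of the others 0.153). With sequence variants left out both passed (edgeR adjusted p = 0.0221 and 0.0175). Without clonotypes found under 2 or more letters neither did (0.0912 and 0.134). Both belong to families of near-identical copies (TRAV6 and TRAV13), so their names are uncertain. The rows of TRAV6-3 TRAJ6 and TRAV6-3 TRAJ49 had been called under 5 and 6 segments, but those of TRAV13-3 TRAJ21 under 1. By out-of-frame mean share, the segments next to TRAV16 were TRAV3-3 (7.29% against 9.18% productive), TRAV12-2 (7.18% against 2.64%), TRAV6-7 (7.09% against 4.76%) and TRAV13-1 (5.71% against 1.77%). None of these 4 passed the edgeR test (adjusted p from 0.162 to 0.452).

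**Figure D4:**
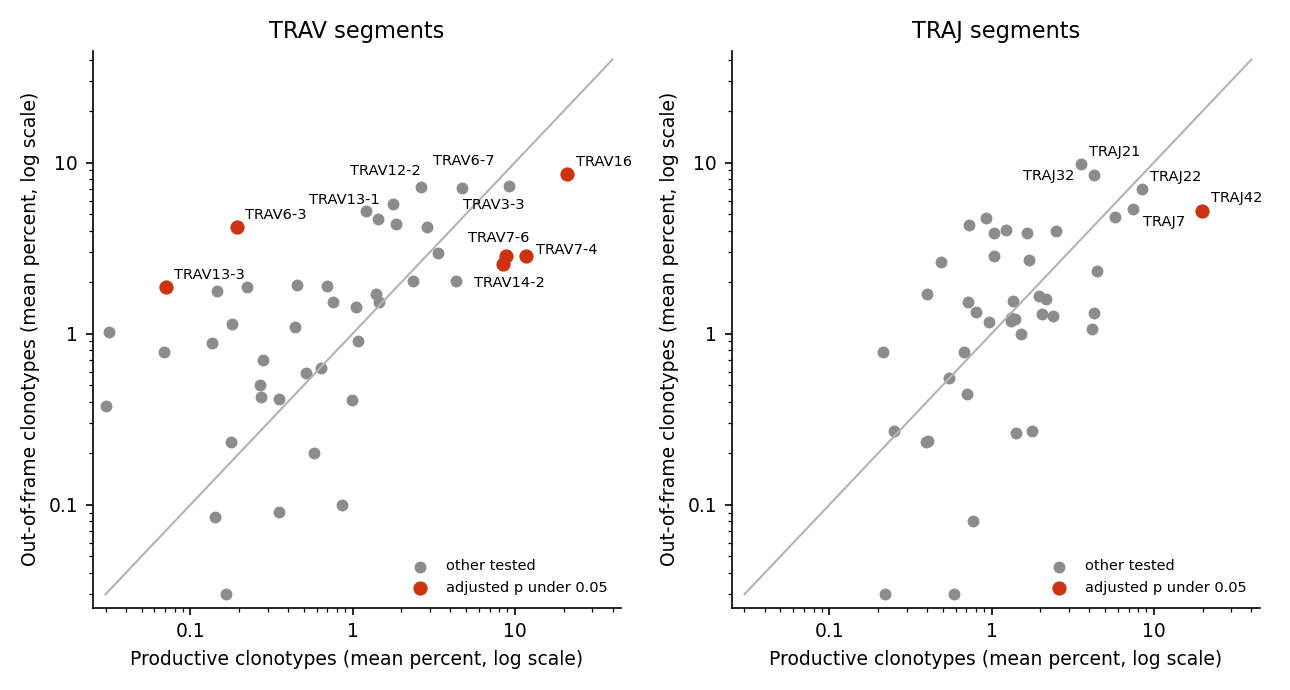
Mean percent of out-of-frame clonotypes (vertical) against mean percent of productive clonotypes (horizontal) over 12 libraries, on log scales, for TRAV (left, 45 segments) and TRAJ segments (right, 43). The line marks equal use, values near 0 are drawn at the edge, and red points passed the edgeR test; TRAV16 and TRAJ42 lie well below the line.

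Of 43 TRAJ segments tested, 1 passed (2.33%), and it was lower out of frame. TRAJ42 took 19.9% ± 17.8 of the productive and 5.24% ± 5.48 of the out-of-frame clonotypes (SD, n = 12), a log2 fold change of -2.09 (edgeR adjusted p = 0.00654), and was lower in 11 of 12 libraries. It ran from 1.77% to 54.0% of the productive clonotypes and was highest in KO tumor 2. TRAJ42 clonotypes were the largest productive ones in WT TDLN 1, KO tumor 2 and KO tumor 3. Of the TRAJ42 reads 0.435% were out of frame. The call was lost without WT TDLN 3, WT tumor 3, KO TDLN 3 or KO tumor 2 (highest adjusted p 0.0852) and with sequence variants left out (log2 fold change -1.29, adjusted p = 0.0991).

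TRAJ21 had the largest out-of-frame share, 9.80% ± 14.8 of clonotypes against 3.55% ± 5.10 productive, but did not pass (edgeR adjusted p = 0.311). It held 21.1% of all out-of-frame reads, and 63.4% of these belonged to the join TRAV12-3 TRAJ21. It took 54.4% of the out-of-frame clonotypes in WT tumor 2. TRAJ32 followed with 8.41% against 4.30%, TRAJ22 with 7.01% against 8.44% and TRAJ7 with 5.32% against 7.43% (adjusted p from 0.416 to 0.881). TRAJ34, named after its values were seen, had 114 out-of-frame and 54 productive clonotypes and 80.5% of its reads out of frame. Of the 114, 61 were in WT tumor 3 and 50 in KO TDLN 3, the libraries that shared the join TRAV13-2 TRAJ34, and in the test TRAJ34 gave a log2 fold change of 0.15 (adjusted p = 0.95). The number of calls varied with the method, from 0 to 7 for TRAJ, as given in the closing section.

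Segment numbers roughly follow the order of the locus. For TRAV the position is coarser, because duplicated copies of a segment were counted under 1 number. Early rearrangements tend to use segments near the middle of the locus, TRAV segments of high and TRAJ segments of high number. Whether the failed joins here arose early was not tested. The mean TRAJ number was 28.3 ± 4.23 out of frame and 29.1 ± 4.07 productive (SD, n = 12), a difference of -0.75 (exact sign-flip p = 0.392, adjusted p = 0.825). TRAV17 to TRAV21, the segments nearest to TRAJ, made up 1.32% ± 1.49 and 1.30% ± 1.58 of clonotypes, a difference of 0.025 points (exact p = 0.958, adjusted p = 1), and were higher out of frame in 6 of 12 libraries.

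The length of the CDR3 was counted in nucleotides from the first to the last border codon. It was 43.1 ± 1.38 out of frame and 43.9 ± 0.920 productive as the mean over clonotypes (SD over 12 libraries), a difference of -0.87 (exact sign-flip p = 0.119, adjusted p = 0.356). Weighted by reads it was 41.4 ± 2.16 and 43.6 ± 1.01, shorter out of frame in 11 of 12 libraries, by 2.12 nucleotides on average (exact p = 0.00244, adjusted p = 0.0183). WT TDLN 4 was the exception, with 45.6 out of frame and 44.3 productive. The weighted length was set by few joins, since the largest held 20.3% to 95.1% of the out-of-frame reads of its library. Several of these joins were shared between libraries, so the p-value does not rest on 12 separate sets of joins. With variants left out the difference over clonotypes was -0.031 (exact p = 0.949). The mean over clonotypes includes 20 out-of-frame clonotypes over 60 nucleotides, described below, with 13 of them in WT tumor 3. In that library it was 46.0 out of frame, with an SD of 24.7 over clonotypes, and 42.6 productive. Out-of-frame clonotypes were longer on average in 3 of 12 libraries, WT tumor 3 among them, and shorter in 9. The difference was not computed without the long sequences. The quartiles over clonotypes were 38, 41 and 46 out of frame and 42, 45 and 45 productive. Lengths of 1 base over a multiple of 3 made up 25.9% (KO TDLN 3) to 71.4% (WT tumor 4) of the out-of-frame clonotypes. Weighted by reads that share ran from 2.10% in WT tumor 2 to 87.0% in WT TDLN 4.

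**Figure D5:**
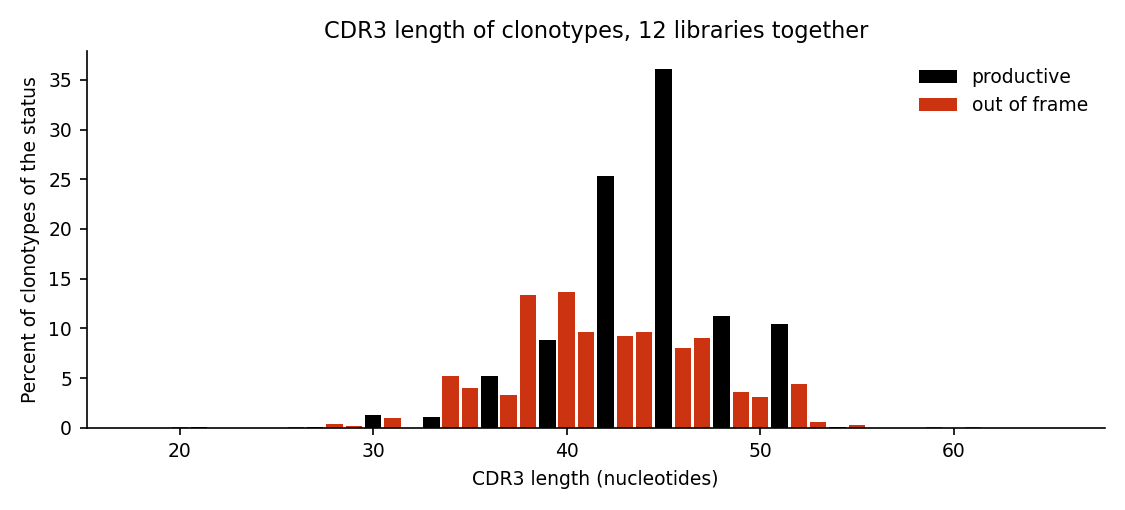
Distribution of CDR3 length in nucleotides for out-of-frame (red) and productive clonotypes (black), as the percent of all clonotypes of that kind over 12 libraries. Productive lengths fall on multiples of 3, and out-of-frame lengths fill the positions between them with a median of 41 against 45; the few longest sequences lie beyond the axis.

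A few members were longer than any usual CDR3. There were 20 clonotypes over 60 nucleotides, with 139 reads, and 13 of the 20 were in WT tumor 3. In 10 of the 20, with 129 of the 139 reads, the sequence began with the complete CDR3 of a productive clonotype of the same library. All 10 were in WT tumor 3 and began with the same productive CDR3. Productive clonotypes over 60 nucleotides also occurred, the longest with 162. The most abundant, a TRAV13-2 TRAJ27 sequence with 116 reads and 139 bases in WT tumor 3, is printed with capitals for the productive CDR3 at its start (39 bases) and for the stretch at its end shared with other TRAJ27 clonotypes (28 bases).
TRAV13-2 TRAJ27, out of frame, 139 bases: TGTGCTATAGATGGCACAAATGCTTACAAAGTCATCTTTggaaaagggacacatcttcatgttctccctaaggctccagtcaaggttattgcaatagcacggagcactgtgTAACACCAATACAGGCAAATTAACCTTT
Its start is the CDR3 of the dominant productive clonotype of WT tumor 3 (TRAV13-2 TRAJ30, 29.8% of TRA reads). This sequence therefore held the ends of 2 TRAJ segments in a row, unlike a single V to J join.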

How the data were processed

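Receptor transcripts of 12 sorted T cell samples were amplified from polyA RNA with TCR-specific primers, per the labels' protocols, and no molecular identifiers are described. Per the file headers the tables are TRUST4 reports, and the build is GRCm39, per the submitters' processing notes. The TRA table holds the read count of each rearrangement as deposited by the authors, with a fraction of the library's TRA total beside it. Counts were used. The TRB comparison used the deposited counts of a table of all chains for 8 libraries. Depth was 17082 to 109366 TRA reads per library. Samples were grouped by the labels, and WT tumor 2, numbered 1 in the tables, was matched by its library name. A deposited run log marks WT TDLN libraries 1 and 3 and KO TDLN libraries 1 and 2 as timed out. No tumor library is marked, so in the comparisons of tumor with TDLN this status lay on the TDLN side only.

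The clonotype key uses the TRAV subgroup because the same CDR3 appeared under several near-identical segments, and the segment with most reads gave the name. Intervals are 95% Wilson intervals. Groups were compared by exact two-sided permutation of libraries, and out of frame with productive by exact sign-flip over the 12 libraries (4096 assignments). The 15 tests were adjusted together. Segments with at least 10 clonotypes were tested by quasi-likelihood F test in edgeR 4.0.16 under R 4.3.3, with DESeq2 1.42.0 and limma 3.58.1 (pseudocount 0.1 percent) as alternatives. On simulated counts with the same library totals, 16-fold changes were recovered in 90.6% (TRAV) and 93.8% (TRAJ) of cases and 4-fold changes in 14.4% and 16.9%. The simulation drew all libraries independently from a common segment profile, without library effects or shared clonotypes. Recovery under the conditions of these data was therefore not measured. Nothing says that samples came from separate mice, so p-values measure the spread between these samples.

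The members, the TRAJ7 rule and the lists were chosen with earlier results of these data known. Clonotypes were named if they were the largest failed join of a library, among the 10 largest by mean share, or had 10 reads under at least 3 letters. Segments were named if they passed the test or were among the 5 with the largest out-of-frame mean share. Same-numbered tumor and TDLN libraries did not deviate together, with correlations from -0.222 to 0.0421 over 5 pairs, and were treated as unpaired. WT TDLN 1 and WT tumor 2, which share a letter, were not among the 5, because their numbers in the labels differ (correlation -0.0082). Alternatives added after seeing the data were the border codons, sequence variants, the segment as called, timed-out libraries and the largest 10 percent of clonotypes.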

Additional observations from a re-analysis of the deposited data

Results flagged for a closer look

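Among the 6 tumor libraries WT tumor 2 stood apart by the share of its out-of-frame reads that lay in a single join, 95.1% for TRAV12-3 TRAJ21. The gap to the next tumor library exceeded the critical share of the range. The check covered 8 measures in both tissues, 16 sets of 6 libraries, and chance marks about 1 in 20 sets.

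Rows that were in frame but held a stop codon entered no comparison. The largest such clonotype was TRAV3-3 TRAJ37 in KO TDLN 1, with 897 reads or 1.76% of its TRA reads. It raised that library's share of such rows to 1.92%, against 0.0472% to 0.236% in the other 11.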

How the results depend on the processing

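Of 385 recomputed values of the 15 single-value results and the 2 counts of segments, 325 kept their direction and their side of the threshold, and so did 291 of 344 for named segments. The exceptions among the 17 results follow, and their cause was not tested. For named segments 50 values kept their direction but lost the call, 1 gained it (TRAV3-3 with DESeq2, log2 fold change -1.46, adjusted p = 0.00753) and 2 reversed. The losses concern TRAV6-3, TRAV13-3, TRAV7-4, TRAV7-6, TRAV14-2, TRAV16 and TRAJ42, and the report gives those from leaving out 1 library. No group comparison passed the threshold as reported or in any alternative. Comparisons of 3 against 3 libraries or fewer could not pass under any setting, so for them only the direction could change.

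With the TRAJ7 frame as deposited, the differences in percent of reads were -22.6 (KO minus WT in TDLN), 3.70 (in tumor), -22.8 (tumor minus TDLN in WT), 3.47 (in KO) and -9.67 (both). In percent of clonotypes they were -9.81 (KO minus WT in TDLN), -5.56 (tumor minus TDLN in WT) and -0.69 (both). The TRAJ number difference was then -5.93 (adjusted p = 0.0220), the TRAV17 to TRAV21 difference -0.30, the TRAJ7 log2 fold change 4.77 and that of TRAV7-4 -0.29. Without TRAJ34, KO minus WT in tumor was 0.17 and tumor minus TDLN over both -0.22 points of reads. For percent of clonotypes, tumor minus TDLN in KO was -1.04 without single-read clonotypes, -0.049 with the segment as called and -2.01 without the timed-out libraries, and KO minus WT in tumor was 1.38 for clonotypes of 10 reads or more. Without clonotypes found under 2 or more letters, tumor minus TDLN in KO was 2.16 points of reads, TRAV17 to TRAV21 -0.22, the top 10 difference 12.7 and the TRAJ22 log2 fold change 0.22. TRAV17 to TRAV21 was -0.68 weighted by reads, -0.0035 with the segment as called and -0.33 without the timed-out libraries. The length difference weighted by reads was -2.12. The single-read difference without variants was -1.83. The top 10 difference was 9.92 without the timed-out libraries and -1.77 over the largest 10 percent of clonotypes.

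The 6 TRAV calls became 1 without single-read clonotypes and 1 without those found under 2 or more letters. With no library block 7 were called, all higher. The 1 TRAJ call became 2 with DESeq2, 7 with TMM, 4 with limma, 6 by reads, 2 with the TRAJ7 frame as deposited and 3 without 1-indel neighbours. It became 0 without single-read clonotypes (6 at an unadjusted p under 0.05), without a library block (9) and without variants (5).

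Leaving out 1 library at a time gave 3 to 6 TRAV and 0 to 1 TRAJ calls. Reads: KO minus WT in tumor ran from -7.34 (without WT tumor 4) to 4.29 (without WT tumor 3), tumor minus TDLN in WT from -1.76 (without WT tumor 3) to 9.87, and over both from -2.998 (without WT tumor 3) to 2.82. Clonotypes: KO minus WT in tumor ran from -9.87 to 1.96 and tumor minus TDLN in KO from -0.75 to 1.23. The TRAV17 to TRAV21 difference ran from -0.12 to 0.25. With same-numbered libraries as pairs (replicate block), the tumor difference with the genotypes joined was -0.084 points of reads, and no call changed. WT TDLN 1 and WT tumor 2 were again not taken as a pair.

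Libraries were few, so with 3 against 3 no p can fall below 0.1, and reads bound counting error only.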
